A study of Homo sapiens with 12 samples.

Results

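The 42 genes described here encode factors that build ribosomes in the nucleolus, and all 42 symbols were found among the 60564 rows of the deposited expression table. They were taken as a fixed list of nucleolar processing and RNA polymerase I factors. No measured value entered the rule, but the list was chosen with earlier results of these data known. All 42 reached the expression minimum of 1 FPKM in at least 3 of the 12 libraries, among 12860 genes that did. By role they divide into 4 genes of RNA polymerase I, 6 of the small nucleolar ribonucleoproteins (snoRNPs), 5 nucleolar chaperones and scaffolds, 14 factors of the small subunit and 13 of the large subunit.

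RNA was sequenced from BxPC-3 and CFPAC-1, which are established cell lines of human pancreatic ductal adenocarcinoma, under conditions with few and with many primary cilia. The groups were BxPC-3 induced, BxPC-3 control, CFPAC-1 induced and CFPAC-1 control, with 3 libraries each. Induced cells were starved of serum for 48 h, control cells were kept in normal culture, and the labels name no transgene or edited allele in any group. The submitters gave cilia in 78% of induced and 5% of control BxPC-3 cells, and in 39% of induced and 7% of control CFPAC-1 cells, so starvation and ciliation cannot be told apart in either line.

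Ribosome assembly starts when RNA polymerase I transcribes the ribosomal DNA into a long precursor, which snoRNPs modify and guide while chaperones and helicases fold it. A large early particle, the 90S pre-ribosome, then yields the small 40S subunit, and a separate series of particles yields the large 60S subunit. The process takes much of the energy of a growing cell, is driven by growth factors and the transcription factor MYC, and is known to be cut back when serum is withdrawn.

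The libraries of a group were not equally far apart. Across the 12860 tested genes, libraries 2 and 3 correlated at r of 0.987 to 0.990 in every group, whereas library 1 correlated with them at 0.947 to 0.953 in BxPC-3, at 0.937 to 0.946 in the induced CFPAC-1 group and at 0.814 in the CFPAC-1 control group. No label ties a library to a culture of its own, so each p-value reflects a spread that may be only technical, and if libraries 2 and 3 share a culture that spread is too small. CFPAC-1 control libraries 2 and 3 stood apart further, with a mean r of 0.803 to the other 4 CFPAC-1 libraries, which correlated at 0.944 among themselves. In these control libraries the duct keratin KRT19 was 7.42 and 7.67 FPKM, against 532 FPKM in control library 1 and 254 to 627 FPKM in the induced libraries, so results in CFPAC-1 are given with and without them. The 6 duct and epithelial markers, KRT19 included, summed to 1075, 599 and 638 FPKM in CFPAC-1 control libraries 1, 2 and 3. Some other markers of that list thus stayed expressed where KRT19 was low, but the sum does not show which. Changes on starvation in CFPAC-1 were positive for 4 of the 6 with all control libraries and for 2 without control libraries 2 and 3. KRT7, another duct keratin, was 395 to 586 FPKM in BxPC-3 and at most 2.01 FPKM in CFPAC-1. Depth in reads is unknown, since the table holds no counts.

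Promoters of 4 members are shown because they belong to members that passed the test in CFPAC-1 and hold the short motifs whose shares are given after them. LTV1, BYSL and PNO1 act on the small subunit and fell in starved CFPAC-1 cells, and NOB1, which makes the last cut of the small-subunit RNA, rose. Each window runs from 250 bases before to 50 bases after the RefSeq start of transcription (GRCh38.p14), thus promoter and the first transcribed bases, and is written 5′ to 3′ on the gene's strand. Capitals mark the E-box CACGTG in LTV1 (chr6:143843088-143843387, plus strand), BYSL (chr6:41921249-41921548, plus strand) and PNO1 (chr2:68157638-68157937, plus strand), and the palindrome GCGCATGCGC, the motif named for NRF1, in NOB1 (chr16:69754877-69755176, minus strand).
LTV1: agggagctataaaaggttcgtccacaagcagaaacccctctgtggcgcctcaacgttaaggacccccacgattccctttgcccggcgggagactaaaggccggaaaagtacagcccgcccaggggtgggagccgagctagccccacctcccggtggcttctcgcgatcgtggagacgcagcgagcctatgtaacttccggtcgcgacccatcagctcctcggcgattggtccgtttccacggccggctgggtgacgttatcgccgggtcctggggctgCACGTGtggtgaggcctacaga
BYSL: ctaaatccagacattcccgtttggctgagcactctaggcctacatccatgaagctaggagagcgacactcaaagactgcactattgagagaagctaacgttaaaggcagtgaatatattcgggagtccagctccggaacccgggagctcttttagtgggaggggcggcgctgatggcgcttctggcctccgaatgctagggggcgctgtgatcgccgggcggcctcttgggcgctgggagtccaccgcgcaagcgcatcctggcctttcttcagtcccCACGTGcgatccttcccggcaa
PNO1: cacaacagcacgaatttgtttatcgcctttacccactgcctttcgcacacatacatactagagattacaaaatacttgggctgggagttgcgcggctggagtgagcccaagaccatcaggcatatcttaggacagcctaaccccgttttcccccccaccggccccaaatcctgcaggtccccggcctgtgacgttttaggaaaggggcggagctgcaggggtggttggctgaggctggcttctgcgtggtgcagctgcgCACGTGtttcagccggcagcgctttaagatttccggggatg
NOB1: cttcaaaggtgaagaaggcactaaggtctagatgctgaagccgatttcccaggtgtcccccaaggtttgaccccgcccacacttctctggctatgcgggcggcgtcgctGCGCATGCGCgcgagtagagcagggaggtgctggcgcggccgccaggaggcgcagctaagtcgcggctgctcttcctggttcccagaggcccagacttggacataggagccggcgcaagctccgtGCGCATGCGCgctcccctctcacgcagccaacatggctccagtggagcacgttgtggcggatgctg

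The E-box stood 29 bases into the transcript of LTV1 and of BYSL and 10 bases into that of PNO1, and the NOB1 palindromes began 141 and 16 bases before the start. RefSeq windows were found for 37 members, 47 windows in all, among 35116 windows of that length. The E-box, the site that MYC binds with its partner MAX, was present in 19 member windows (40.4%) of 18 members, in 7.26% of all windows and in 9.35% of the windows of tested genes. In 17 of those 19 windows (89.5%) an E-box began within 50 bases of the start, against 990 of the 2548 windows with an E-box in the whole set (38.9%). This position was not computed for the windows of tested genes alone, so the whole set includes genes not expressed here.

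Members with and without an E-box were compared as a description. Of the 18 members with one, 10 fell in starved CFPAC-1 cells, and of the 19 without one, 8 fell. Their median log2 changes were -0.94 with and -0.66 without the E-box in CFPAC-1, and -0.43 with and -0.44 without it when CFPAC-1 control libraries 2 and 3 were left out. In BxPC-3 the medians were 0.00 with and 0.07 without it. Other motifs were searched on both strands without regard to overlaps between them. CCGGAA, the core bound by ETS factors, was in 46.8% of member windows, 17.2% of all windows and 27.8% of the windows of tested genes. The NRF1 palindrome was in 6.38% of member windows, 1.24% of all windows and 1.92% of the windows of tested genes. The 3 members with it were NOB1, DDX10 and DKC1, and the last 2 fell in starved CFPAC-1 cells. CCAAT was in 38.3%, 34.6% and 34.7% of these windows, and TATAAA in 4.26%, 11.5% and 5.88%, so both were near their share among tested genes.

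As a share of the summed FPKM of a library, the 42 members together took 0.460% ± 0.0797 in induced BxPC-3 cells and 0.421% ± 0.0574 in control BxPC-3 cells, and 0.369% ± 0.0454 in induced CFPAC-1 cells and 0.571% ± 0.133 in control CFPAC-1 cells (SD, n = 3 each). The 3 induced CFPAC-1 libraries gave 0.422%, 0.343% and 0.343%, against 0.417%, 0.649% and 0.646% in the control libraries. Library 1 of the 2 CFPAC-1 groups thus gave nearly the same share, and the distance between the groups lay in libraries 2 and 3. Mitochondrially encoded transcripts took 11.6% of the induced and 34.0% of the control CFPAC-1 library 1, which moves every other FPKM value, and without them the members took 0.477% of the induced and 0.632% of the control library 1. FPKM, fragments scaled to transcript length and to the mapped total, is relative to the library, and in such bulk RNA fewer cells of a kind and less RNA per cell cannot be told apart.

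**Figure D1:**
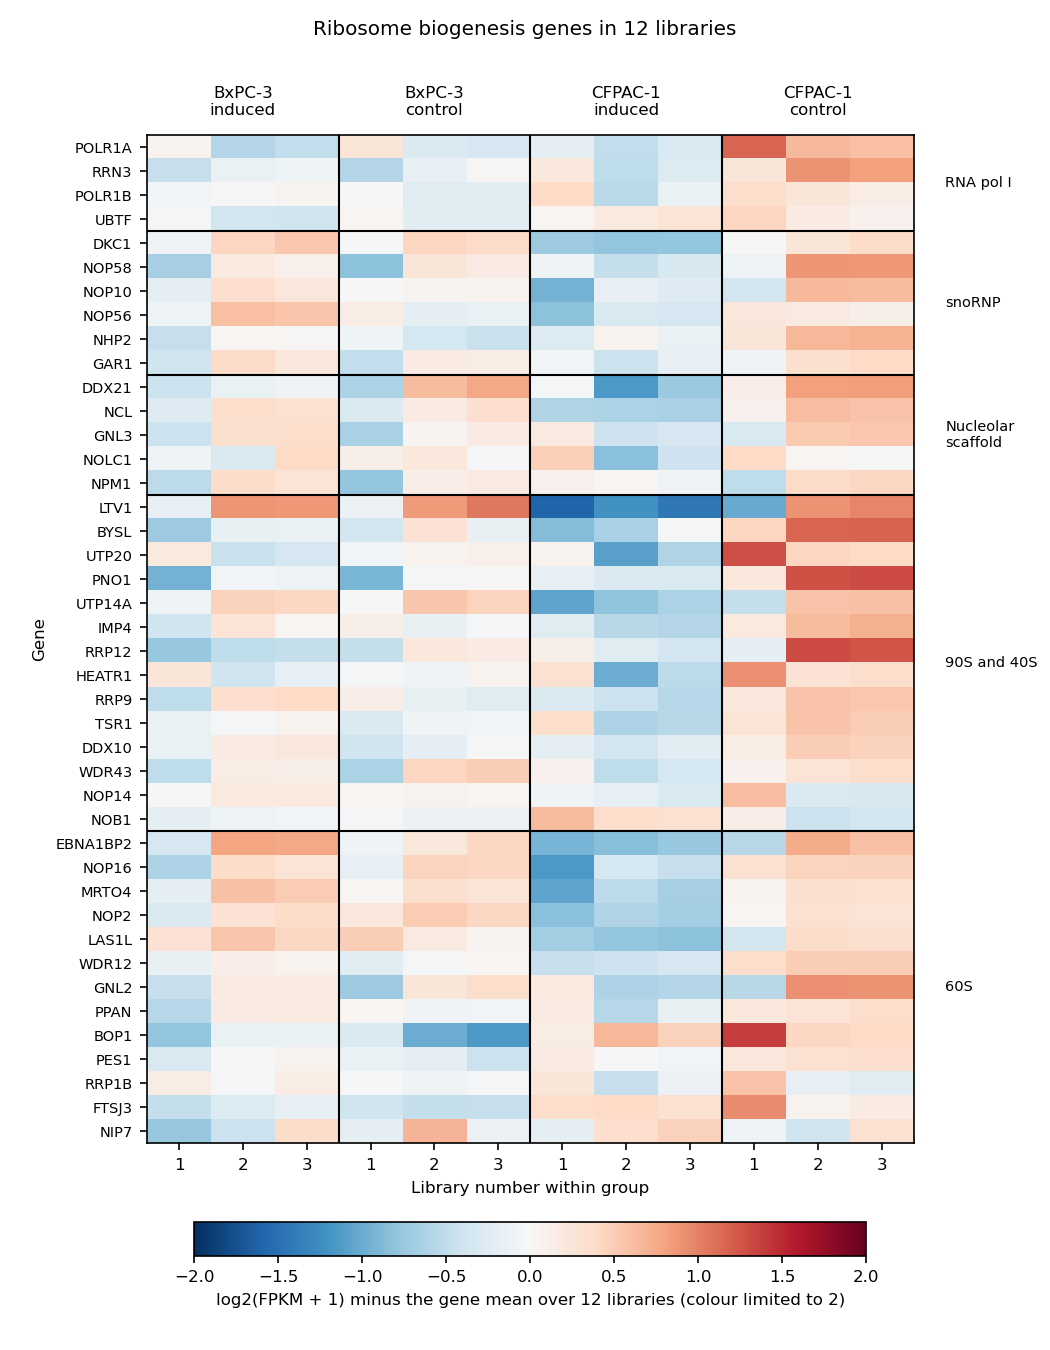
Log2(FPKM + 1) of each of the 42 members (rows, by role) in the 12 libraries (columns), less the gene's mean over all 12; red is above and blue below that mean, and colour is limited to 2. The induced CFPAC-1 libraries are mostly blue and the CFPAC-1 control libraries mostly red, most strongly in control libraries 2 and 3, while the BxPC-3 groups resemble each other.

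The first comparison asked how the members changed when CFPAC-1 cells were starved. In the limma fit of all 12 libraries on log2(FPKM + 1), 18 of 42 members fell, 23 did not pass the test and 1, NOB1, rose, with a threshold of 0.05 on p-values adjusted by Benjamini-Hochberg over the 12860 tested genes. Of all tested genes, 8.77% fell and 7.85% rose. Changes were negative for 40 of the 42 members, against 56.3% of all tested genes, and the median log2 change was -0.80, against -0.09 for all tested genes. In 23 members all 3 induced libraries lay below all 3 control libraries, which 17.6% of tested genes did, and in 1 member they lay above, which 14% did. On the log2(FPKM + 1) scale a change in a weakly expressed gene comes out smaller than it is.

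These counts rest on control libraries 2 and 3. Without them 0 members passed the test in limma, with 14 at an unadjusted p below 0.05, while 0.669% of tested genes fell and 1.06% rose. The direction was then negative for 36 of 42 members, against 55.3% of tested genes, with a median of -0.45 against -0.05, and the 3 induced libraries lay below control library 1 in 29 members (33.7% of tested genes) and above it in 2 (27.2%). Within libraries numbered 1 the members' median difference was -0.39 (0.01 for all tested genes), and within libraries numbered 2 and 3 it was -0.92 (-0.13 for all tested genes). With libraries 2 and 3 of each group averaged and counted as 1, 0 of the 12860 tested genes passed in limma, members included. The members' median was then -0.64, against -0.06 for all tested genes.

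RNA polymerase I opened the pathway with 2 of its 4 genes lower. POLR1A, the largest subunit of the enzyme (chromosome 2, 86020216 to 86106155, minus strand, GRCh38), read 6.97, 5.47 and 6.4 FPKM in induced CFPAC-1 libraries 1, 2 and 3, against 19.4, 13.2 and 12.8 FPKM in control libraries 1, 2 and 3. The induced libraries all lay below the control libraries, the highest of which was library 1, the control library that resembled the induced ones most over all genes. The log2 change was -1.13 ± 0.24 (SE; limma, adjusted p = 0.013), and without control libraries 2 and 3 it was -1.49 (adjusted p = 0.052 in limma).

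RRN3, which tethers the polymerase to the ribosomal DNA promoter, read 11.8, 6.76 and 8.09 FPKM in induced CFPAC-1 libraries, against 12, 19.6 and 18.5 FPKM in control libraries. The groups did not overlap, but library 1 was nearly equal in both. Its log2 change was -0.84 ± 0.25 (SE; limma, adjusted p = 0.044), and -0.43 without control libraries 2 and 3. RRN3 has 3 pseudogene rows in the table, at 1.2 to 3.88 FPKM summed, so its reads may be shared with them. POLR1B, the partner of POLR1A in the catalytic core, and UBTF, which holds the ribosomal DNA open and recruits the polymerase, had log2 changes of -0.34 and -0.06 and did not pass. UBTF was 14.8 to 17.6 FPKM in induced and 15.4 to 19.8 FPKM in control CFPAC-1 libraries.

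Among the 6 snoRNP proteins 1 passed the test and all 6 changes were negative, with a median of -0.71. Without control libraries 2 and 3 the median was -0.27. DKC1, the pseudouridine synthase of the H/ACA particles (chromosome X, 154762742 to 154777689, plus strand), read 10.9, 10.4 and 10.5 FPKM in induced CFPAC-1 libraries, against 18.5, 22.1 and 24.3 FPKM in control libraries. The induced values were nearly equal, and control library 1 also lay well above them. DKC1 fell by 0.96 ± 0.21 on the log2 scale (SE; limma, adjusted p = 0.013), and its change without control libraries 2 and 3 was -0.75 (adjusted p = 0.20 in limma).

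The partners of DKC1 in the H/ACA particle did not pass. NHP2 had a log2 change of -0.65 (limma, adjusted p = 0.052), NOP10 of -0.76 and GAR1 of -0.43, and in NOP10 and GAR1 the groups overlapped. The ratio of NHP2 to DKC1, in FPKM, was 7.31, 9.82 and 8.43 in induced CFPAC-1 libraries and 6.18, 6.97 and 6.46 in control libraries. This ratio was higher in each induced library than in any control library of the line, with induced library 1 close to control library 2, and the difference between the changes of the 2 genes was not tested. Of the core proteins of the box C/D particles, which guide methylation of the precursor, NOP56 was at -0.66 and NOP58 at -0.84, neither past the threshold.

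Of the 5 nucleolar chaperones and scaffolds 2 passed the test. Nucleolin, NCL, which binds the precursor and ribosomal DNA chromatin (chromosome 2, 231453531 to 231483641, minus strand), read 46.6, 45.7 and 45.1 FPKM in induced CFPAC-1 libraries, against 76, 109 and 106 FPKM in control libraries. The induced values were nearly equal and lay below every control value. NCL fell by 1.05 ± 0.23 on the log2 scale (SE; limma, adjusted p = 0.014), with -0.72 as its change without control libraries 2 and 3.

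DDX21, a nucleolar RNA helicase, read 30.1, 13.5 and 18 FPKM in induced CFPAC-1 libraries, against 34, 55.6 and 56.1 FPKM in control libraries. The gap between the groups was small, from 30.1 FPKM in induced library 1 to 34 FPKM in control library 1. Its log2 change was -1.24 ± 0.39 (SE; limma, adjusted p = 0.049) and -0.77 without control libraries 2 and 3. Nucleophosmin, NPM1, a chaperone of the granular nucleolus and the most abundant member, read 254, 245 and 229 FPKM in induced and 168, 313 and 318 FPKM in control CFPAC-1 libraries. Control library 1 was the lowest of these and the other control libraries the highest, so NPM1 had a log2 change of -0.08 with all libraries and of 0.52 without control libraries 2 and 3. NPM1 has 44 pseudogene rows, at 39.8 to 96.8 FPKM summed, with which its reads may be shared. GNL3, a nucleolar GTPase also called nucleostemin, and NOLC1, a chaperone of snoRNPs, were at -0.45 and -0.41 and did not pass, and GNL3 was at 0.11 without control libraries 2 and 3.

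**Figure D2:**
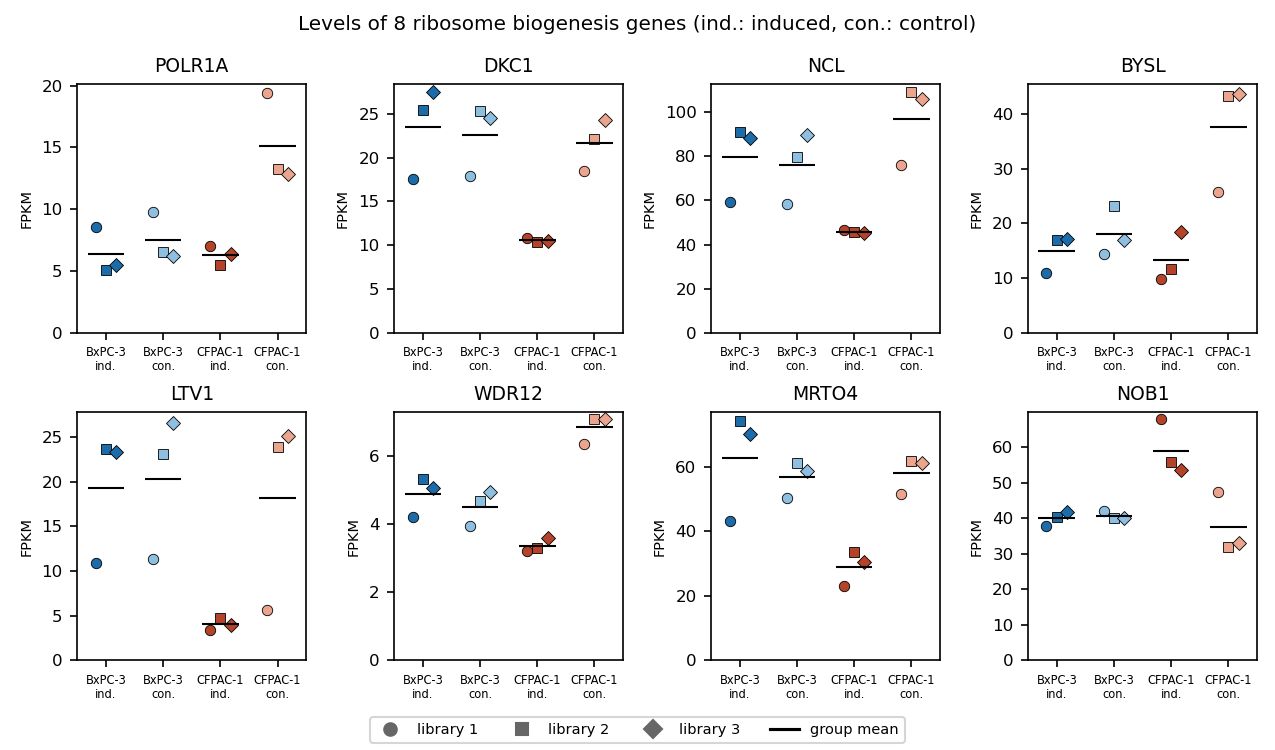
FPKM of 8 members in each library, with BxPC-3 groups on the left and CFPAC-1 groups on the right of each panel, symbols for library numbers and a bar at the group mean. In POLR1A, DKC1, NCL and WDR12 all 3 CFPAC-1 control libraries lie clear of the induced ones, in LTV1 control library 1 lies near them, NOB1 is higher in the induced libraries, and the BxPC-3 groups overlap in every panel.

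With all libraries, factors of the 90S particle and the small subunit held the largest changes, with 8 of 14 lower, 1 higher and a median of -0.94. Without control libraries 2 and 3 their median was -0.50. That of the chaperones and scaffolds was then -0.66 and that of the large-subunit factors -0.60. LTV1, an assembly factor that leaves the small subunit late (chromosome 6, 143843344 to 143863812, plus strand), read 3.41, 4.77 and 3.94 FPKM in induced CFPAC-1 libraries, against 5.63, 23.9 and 25.2 FPKM in control libraries. Control library 1 lay just above the induced libraries and the other control libraries far above. LTV1 fell by 1.70 ± 0.51 on the log2 scale (SE; limma, adjusted p = 0.044), the largest drop among the members, and its change was -0.40 without control libraries 2 and 3. In BxPC-3 library 1 also read low in LTV1, at 10.9 FPKM induced and 11.4 FPKM control, against 23.1 to 26.6 FPKM in the other 4 libraries.

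BYSL, called bystin, is a small-subunit factor that stays on the particle until late in the nucleus (chromosome 6, 41921188 to 41933046, plus strand). It read 9.81, 11.6 and 18.3 FPKM in induced CFPAC-1 libraries, against 25.8, 43.3 and 43.7 FPKM in control libraries. The groups were apart, with control library 1 between the rest, and the log2 change was -1.44 ± 0.30 (SE; limma, adjusted p = 0.011) or -0.95 without control libraries 2 and 3. UTP20, a large scaffold protein of the 90S particle (chromosome 12, 101280109 to 101386616, plus strand), read 2.67, 0.653 and 1.29 FPKM in induced CFPAC-1 libraries, against 7.54, 3.7 and 3.6 FPKM in control libraries. Here control library 1 was the highest, and UTP20 changed by -1.24 ± 0.32 with all libraries (SE; limma, adjusted p = 0.027) and by -1.83 without control libraries 2 and 3 (adjusted p = 0.057 in limma).

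Another 5 small-subunit factors fell, by 0.62 to 1.18 on the log2 scale. PNO1, a partner of NOB1 on the small subunit, changed by -1.18, UTP14A, which activates a helicase of the 90S particle, by -1.05, IMP4 and RRP9, both proteins of the U3 snoRNP, by -0.97 and -0.88, and DDX10, a helicase, by -0.62, with adjusted p-values of 0.015 to 0.044 in limma. PNO1 was 14.4 to 16 FPKM in induced CFPAC-1 libraries, against 21 FPKM in control library 1 and 44.8 and 45.9 FPKM in control libraries 2 and 3. Its change without those control libraries was -0.47, and those of the others lay between -0.35 for UTP14A and -0.65 for IMP4. The other 5 did not pass, with log2 changes of -0.96 for the export factor RRP12, -0.92 for the 90S scaffold HEATR1, -0.71 for the GTPase-like factor TSR1, -0.49 for the 90S protein WDR43 and -0.18 for NOP14. HEATR1 and NOP14 were further down without control libraries 2 and 3, at -1.31 and -0.79, while RRP12 was at 0.01.

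NOB1 was described in full after its values had been seen, since it moved against the rest. The endonuclease that makes the mature end of the small-subunit RNA (chromosome 16, 69741867 to 69754940, minus strand), it read 68, 55.7 and 53.4 FPKM in induced CFPAC-1 libraries, against 47.4, 32 and 33.1 FPKM in control libraries. All induced libraries were above all control libraries, with library 1 the highest of its group in both. NOB1 rose by 0.66 ± 0.18 (SE; limma, adjusted p = 0.033), and stood at 0.30 without control libraries 2 and 3. When FPKM was rescaled without mitochondrially encoded genes NOB1 lost its call. It also lost it in 9 of the 12 fits that left out 1 library, and with the 2 CFPAC-1 groups fitted alone.

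Large-subunit factors had 5 of 13 members lower, none higher and a median of -0.76, which was -0.60 without control libraries 2 and 3. NOP16, a nucleolar factor of the early large subunit (chromosome 5, 176383938 to 176388975, minus strand), read 11.6, 20.8 and 19.1 FPKM in induced CFPAC-1 libraries, against 33.3, 37 and 37.2 FPKM in control libraries. Its 3 control libraries lay close together, well above the induced ones, and its log2 change was -1.06 ± 0.30 (SE; limma, adjusted p = 0.035) or -0.96 without control libraries 2 and 3. MRTO4, which holds the place of a stalk protein on the immature subunit (chromosome 1, 19251539 to 19260128, plus strand), read 23.1, 33.7 and 30.4 FPKM in induced CFPAC-1 libraries, against 51.6, 61.7 and 61 FPKM in control libraries. It fell by 0.99 ± 0.23 (SE; limma, adjusted p = 0.018), and its change without those control libraries was -0.82.

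NOP2, a methyltransferase of the large-subunit RNA (chromosome 12, 6556863 to 6568691, minus strand), read 8.36, 9.98 and 9.36 FPKM in induced CFPAC-1 libraries, against 16.1, 19.5 and 19.1 FPKM in control libraries. The groups were again clear of each other in library 1 as in the rest. The log2 change was -0.91 ± 0.20 (SE; limma, adjusted p = 0.014) or -0.74 without control libraries 2 and 3. LAS1L, an endonuclease that cuts the spacer before the large-subunit RNA, fell by 0.86 (limma, adjusted p = 0.023) and was at 6.68 to 7.52 FPKM in induced libraries and 9.51 to 16.6 FPKM in control libraries. Without control libraries 2 and 3 its change was -0.39 (limma, adjusted p = 0.42).

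PES1, BOP1 and WDR12 form the PeBoW complex, which matures the large-subunit precursor, and only 1 of the 3 passed in CFPAC-1. WDR12, singled out after its values had been seen because it alone differed between the lines, read 3.21, 3.32 and 3.59 FPKM in induced CFPAC-1 libraries, against 6.35, 7.1 and 7.1 FPKM in control libraries. Its log2 change was -0.84 ± 0.15 (SE; limma, adjusted p = 0.0065) and -0.75 without control libraries 2 and 3 (adjusted p = 0.098 in limma). WDR12 was the only member whose call in CFPAC-1 stood in each of the 12 fits that left out 1 library. PES1 and BOP1 had log2 changes of -0.25 and -0.30. BOP1 read 77.5 FPKM in control library 1 and 38.8 to 39.2 FPKM in the other control libraries, against 32.5 to 47.1 FPKM in the induced libraries.

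Other large-subunit factors did not pass. EBNA1BP2, a scaffold of the early particle, had a log2 change of -1.10 (limma, adjusted p = 0.058) and GNL2, a GTPase, of -0.76, and without control libraries 2 and 3 they were at -0.29 and 0.21. PPAN was at -0.46, RRP1B at -0.16, the methyltransferase FTSJ3 at -0.04 and NIP7, the only other member with a positive change, at 0.27. PPAN overlaps the readthrough gene PPAN-P2RY11 on the same strand, so its reads may be shared. The use of strand in counting is not given in the sources used here, and 24 of the 42 members overlap a gene on the other strand.

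**Figure D3:**
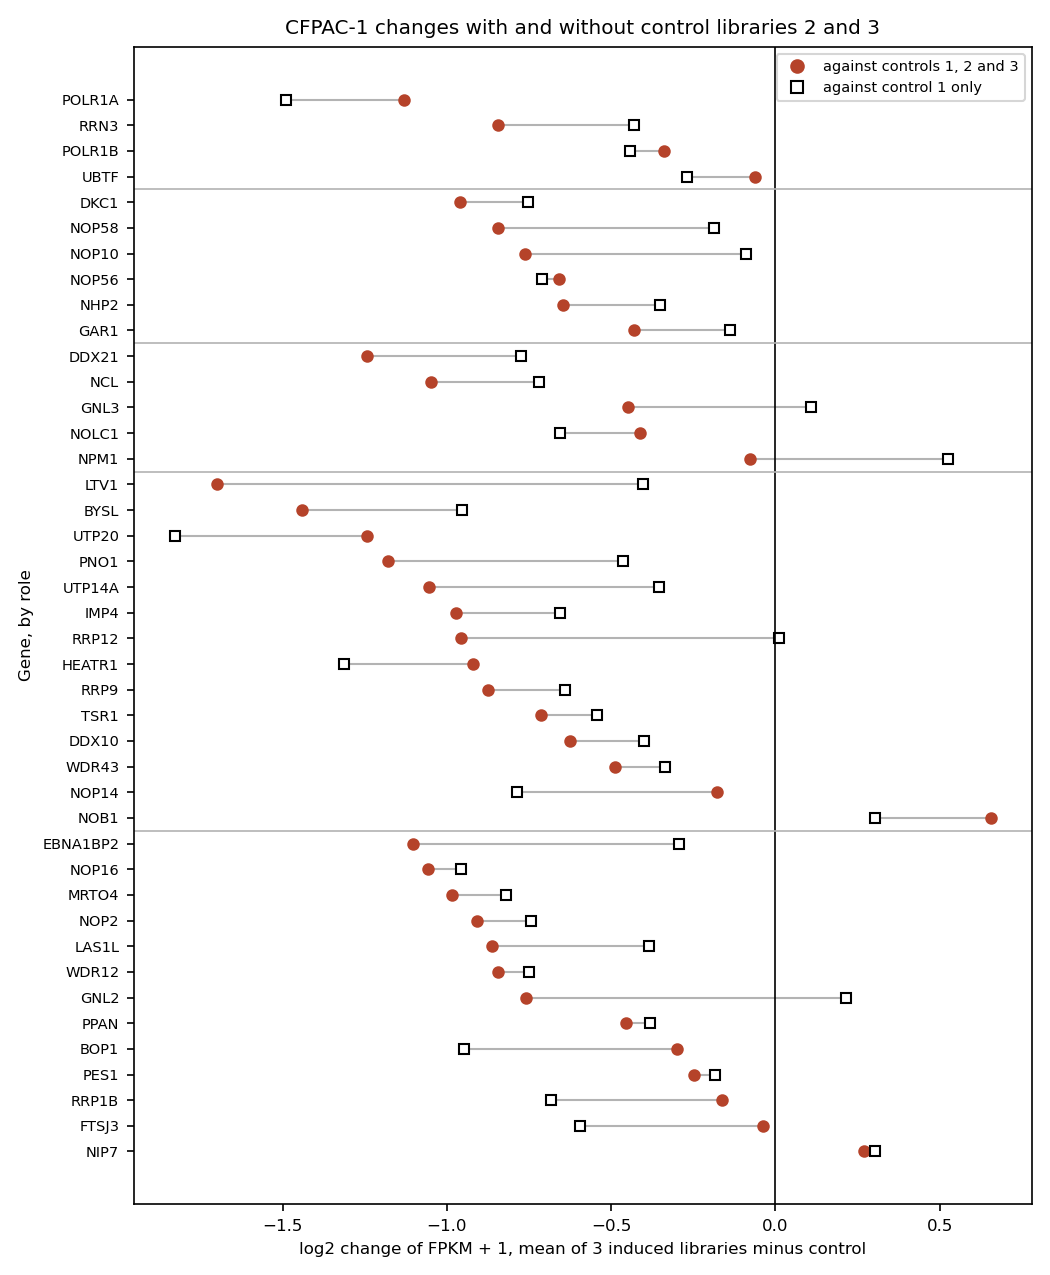
Log2 change of FPKM + 1 of each member in CFPAC-1, induced minus control, against all 3 control libraries (filled circles) and against control library 1 alone (open squares), with rows by role. LTV1, PNO1 and GNL2 move far towards or past 0 when control libraries 2 and 3 are left out, while NOP16, MRTO4, NOP2 and WDR12 stay near their values and POLR1A, UTP20 and HEATR1 lie lower.

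The next comparison asked the same of BxPC-3. In the limma fit 0 of 42 members passed, while 0.295% of all tested genes rose and 0.0389% fell. An unadjusted p below 0.05 in limma was reached by 0 members and by 1096 of the 12860 tested genes. The median log2 change of the members was 0.03, against 0.06 for all tested genes, with 24 changes positive and 18 negative (40.6% of tested genes were negative). They ran from -0.55 for RRP12 to 0.46 for BOP1, and RRP12 was the only member whose induced and control libraries did not overlap (4.84% of tested genes lay wholly below and 12.4% wholly above).

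RRP12 read 5.97, 7.29 and 7.47 FPKM in induced BxPC-3 libraries, against 7.49, 12.7 and 12.2 FPKM in control libraries, so induced library 3 and control library 1 nearly met. POLR1A read 8.55, 5.07 and 5.48 FPKM in induced and 9.75, 6.51 and 6.23 FPKM in control BxPC-3 libraries. NCL read 59.5, 91.1 and 88.3 FPKM in induced and 58.2, 79.6 and 89.8 FPKM in control libraries, and BYSL 10.9, 16.9 and 17.1 FPKM in induced and 14.3, 23.1 and 16.9 FPKM in control libraries. In POLR1A and NCL the library 1 values of both groups lay apart from those of libraries 2 and 3, and in BYSL those of the induced group did. Library 1 was the lowest of its group for 36 of 42 members in induced BxPC-3 cells (36.4% of tested genes) and for 26 in control cells (37.8%), and for 14 in induced CFPAC-1 cells (36.9%) and 29 in control cells (46.6%). Within libraries numbered 1 the members' median difference in BxPC-3 was -0.07, and within libraries numbered 2 and 3 it was 0.09, against 0.09 and 0.05 for all tested genes.

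By role the BxPC-3 medians lay between -0.06 for the small-subunit factors and for RNA polymerase I and 0.11 for the large-subunit factors. The 6 snoRNP proteins all had positive changes, up to 0.41 for NOP56, which read 34.9, 56.8 and 55.1 FPKM in induced and 41.3, 32.6 and 33.9 FPKM in control BxPC-3 libraries. Library 1 went the other way from libraries 2 and 3 in NOP56. DDX21, at -0.47 ± 0.39, and BOP1, at 0.46 ± 0.32 (SE), had changes little above their errors.

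**Figure D4:**
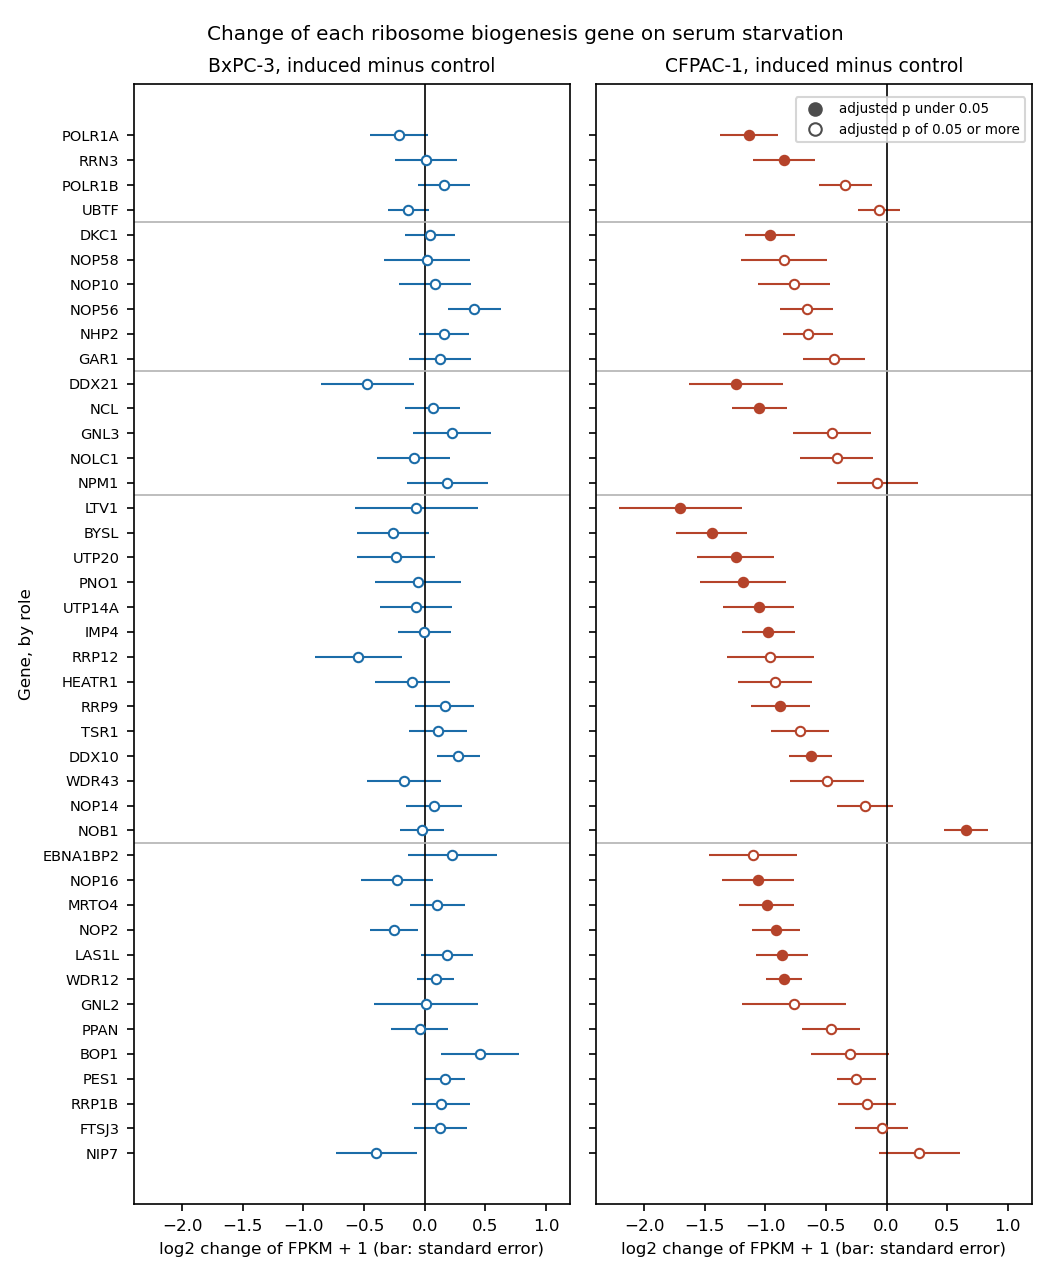
Log2 change of FPKM + 1 with its standard error for each member, induced minus control, in BxPC-3 (left) and CFPAC-1 (right); filled points have a limma p-value below 0.05 after Benjamini-Hochberg adjustment. The 18 members that fell and NOB1 are filled in CFPAC-1, and no point is filled in BxPC-3, where changes run from -0.55 to 0.46.

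Whether the lines differed in their response was tested as the difference of the changes, BxPC-3 minus CFPAC-1. Only WDR12 passed, with a difference of 0.93 ± 0.21 (SE; limma, adjusted p = 0.046), while 1.34% of tested genes passed with a positive and 1.11% with a negative difference. WDR12 was 4.23, 5.34 and 5.08 FPKM in induced and 3.95, 4.68 and 4.95 FPKM in control BxPC-3 libraries, which overlapped, and was lower in all induced than in all control CFPAC-1 libraries. Differences were positive for 39 of 42 members and for 7609 of the 12860 tested genes, with medians of 0.82 and 0.16. An unadjusted p below 0.05 in limma was reached by 21 members and by 3121 of the 12860 tested genes. Next came DDX10 at 0.90 ± 0.25 (limma, adjusted p = 0.079), then DKC1, NCL, NOP56 and LAS1L at 1.01, 1.12, 1.07 and 1.04, each at an adjusted p of 0.085 in limma. Without CFPAC-1 control libraries 2 and 3 WDR12 lost its call and stood at 0.84. The members' median was then 0.54, against 0.13 for all tested genes.

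The starved cells of both lines were also compared, in which the odd control libraries take no part except through the shared estimate of spread. In induced BxPC-3 cells 10 members were higher and 2 lower than in induced CFPAC-1 cells, while 21.4% of tested genes were higher and 14.8% lower, so the members' share called higher was near that of all genes. Those higher were LTV1 by 1.94 ± 0.51, EBNA1BP2 by 1.26, LAS1L by 1.18 ± 0.21, UTP14A by 1.09, MRTO4 and DKC1 by 1.06, NOP56 by 0.85, NOP2 by 0.83, NCL by 0.76 and WDR12 by 0.42, with adjusted p-values of 0.0015 for LAS1L to 0.046 for WDR12 in limma (log2, SE). Those lower were FTSJ3 at -0.67 and NOB1 at -0.55 (limma, adjusted p = 0.034 and 0.035). The median difference was 0.28, against 0.12 for all tested genes, and the lines were apart without overlap for 12 members above (32.1% of tested genes) and 5 below (22.4%). LTV1 showed it most plainly, at 10.9, 23.6 and 23.3 FPKM in induced BxPC-3 libraries, against 3.41, 4.77 and 3.94 FPKM in induced CFPAC-1 libraries.

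Other genes of the pathway were described from lists that do not hold the members. Of 88 other ribosome biogenesis factors, 0 rose and 18 fell in starved CFPAC-1 cells, with a median log2 change of -0.40, and without control libraries 2 and 3 the count was 0 up and 2 down with a median of -0.36. FBL, the methyltransferase of the box C/D particles that hold NOP56 and NOP58, read 82.7, 104 and 96 FPKM in induced CFPAC-1 libraries, against 109, 997 and 1008 FPKM in control libraries. Its log2 change of -2.34 (limma, adjusted p = 0.036) was thus -0.21 without control libraries 2 and 3, and NOP56 in the same particle read 41.9 and 40.4 FPKM there, against 43.5 FPKM in control library 1. EIF6, which keeps the subunits from joining, was at -0.18. Of 11 other tested RNA polymerase I subunits and factors, 0 rose and 2 fell, with a median of -0.28, and POLR1E changed by -1.38 (limma, adjusted p = 0.013), while CD3EAP was at -0.60 and did not pass. Without control libraries 2 and 3 the median of the 11 was -0.26 and POLR1E was at -0.54. In BxPC-3 none of these passed in limma, and the medians were 0.12 and 0.00. At an unadjusted p below 0.05 in limma were 5 of the 88, 0 of the 11 and 1096 of the 12860 tested genes.

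The proteins of the ribosome itself moved the other way. Of 78 cytosolic ribosomal protein genes, 31 rose and 0 fell in starved CFPAC-1 cells, with a median log2 change of 0.62, and without control libraries 2 and 3 it was 3 up, 0 down and a median of 0.81 with all 78 changes positive. RPL13A, a large-subunit protein, read 1079, 1016 and 946 FPKM in induced CFPAC-1 libraries, against 480.5, 473 and 473 FPKM in control libraries, and rose by 1.09 ± 0.15 (SE; limma, adjusted p = 0.0023). RPS2, a small-subunit protein, rose by 0.78 (limma, adjusted p = 0.039), and was at 0.25 without control libraries 2 and 3 (limma, adjusted p = 0.62). In BxPC-3 0 of 78 passed in limma, 0 had an unadjusted p below 0.05 (1096 of the 12860 tested genes had) and the median was -0.01. Ribosomal protein genes have many processed pseudogenes, with which reads may be shared.

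The ratio of the 2 sums needs no scaling between libraries. The summed FPKM of the 78 ribosomal protein genes was 24.9, 25.7 and 24.2 times that of the 42 members in induced CFPAC-1 libraries 1, 2 and 3, against 12, 11.1 and 11.1 times in control libraries. It was 16.8, 16.4 and 16.1 times in induced BxPC-3 libraries, against 18.6, 17.3 and 16.4 times in control libraries. The 3 CFPAC-1 control libraries gave nearly the same ratio, control libraries 2 and 3 included, and the induced libraries of that line lay above every other library.

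**Figure D5:**
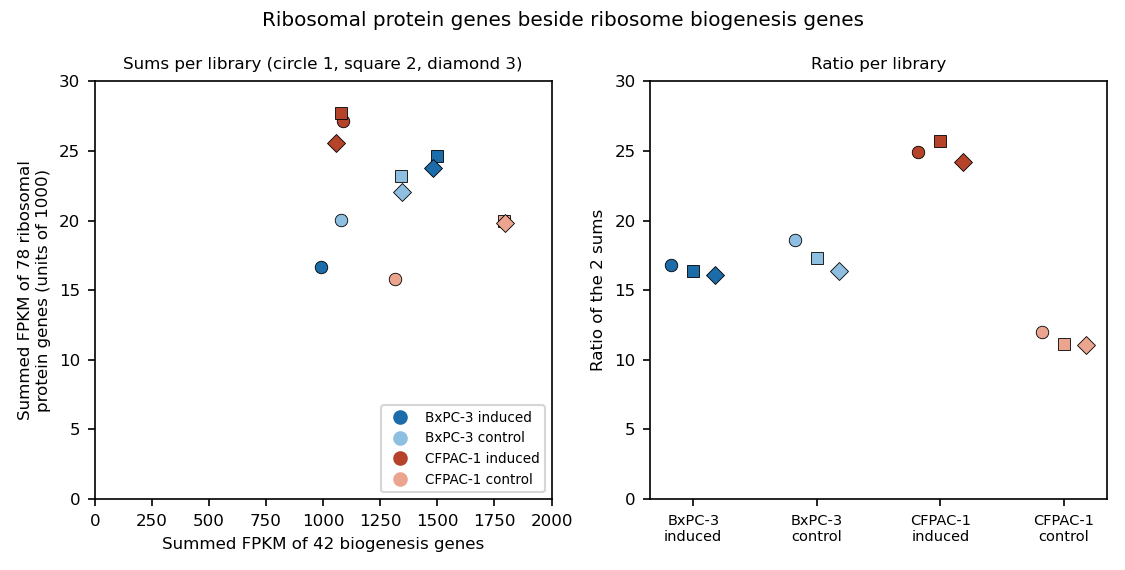
Left, summed FPKM of 78 ribosomal protein genes against summed FPKM of the 42 members, 1 point per library; right, the ratio of the sums per library, by group. The induced CFPAC-1 libraries lie at 24.2 to 25.7, the CFPAC-1 control libraries at 11.1 to 12 and all BxPC-3 libraries at 16.1 to 18.6.

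Genes of the MYC network and of cycling cells were given beside these results. MYC read 17, 3.39 and 3.93 FPKM in induced and 2.8, 56.6 and 43.1 FPKM in control BxPC-3 libraries, and 2.02, 3.89 and 2.76 FPKM in induced and 2.23, 27 and 3.59 FPKM in control CFPAC-1 libraries. It passed in neither line, with changes of -1.54 ± 1.03 in BxPC-3 and -0.97 ± 1.03 in CFPAC-1 (log2, SE), and CFPAC-1 control libraries 2 and 3, nearly equal in almost every member, differed widely in MYC. Of 8 genes of this network 2 rose and 0 fell in CFPAC-1, and 0 passed in BxPC-3. In each line 3 of the 8 had all induced above all control libraries (14% of tested genes in CFPAC-1 and 12.4% in BxPC-3). The MAX partners that oppose MYC, MXI1 and MXD4, rose in starved CFPAC-1 cells by 1.90 (limma, adjusted p = 0.025) and 0.99 (limma, adjusted p = 0.0093), while MAX and MNT were at 0.33 and 0.43 and did not pass. Without control libraries 2 and 3, MXD4 was at 1.25 (limma, adjusted p = 0.047) and MXI1, at 1.76, no longer passed (limma, adjusted p = 0.22).

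Of 5 genes of cycling cells, 3 fell in starved CFPAC-1 cells, with a median of -1.23, and 0 passed in BxPC-3. There 1 of the 5, and 1096 of the 12860 tested genes, had an unadjusted p below 0.05 in limma. Without CFPAC-1 control libraries 2 and 3 only control library 1 remained, and the median of the 5 in CFPAC-1 was -1.29, against -0.05 for all tested genes. MKI67, a marker of proliferating cells, read 3.49, 2.63 and 3.41 FPKM in induced CFPAC-1 libraries, against 10.7, 12 and 13.9 FPKM in control libraries, and 17.4, 9.49 and 8.11 FPKM in induced BxPC-3 libraries, against 15.9, 9.83 and 9.88 FPKM in control libraries. The part of fewer cycling cells in the members' fall was not tested. Of other cell types, the summed levels of 3 acinar, 3 endocrine and 3 endothelial markers were at most 2.89, 0 and 0.621 FPKM in any library. The 6 fibroblast markers without LUM summed to 6.26 and 6.37 FPKM in CFPAC-1 control libraries 2 and 3 and to 0.471 to 1.81 FPKM in the others. The 5 immune markers without CD68 summed to 0.441 to 7.13 FPKM. LUM was 25.5 to 108 FPKM in induced CFPAC-1 libraries and 36.8, 0.0532 and 0 FPKM in the control libraries, and CD68 was 37.1 to 47.8 FPKM in induced and 6.64 to 12.8 FPKM in control libraries. The part of these in the members' changes was not tested.

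Several members hold snoRNA genes on the same strand between their start and end, which the rule for members did not use. Whether these lay in introns was not checked. In GENCODE release 29, 27 snoRNA genes lay inside 8 of the 42 members (19.0%), against 201 of 11125 tested protein-coding genes (1.81%). GNL3 held 6, NOP56 5, NOP58 4, NCL and WDR43 3 each, and DKC1, TSR1 and PPAN 2 each. Of these 8 hosts DKC1 and NCL fell in starved CFPAC-1 cells, and 0 passed in BxPC-3. DKC1, NOP56 and NOP58 are themselves proteins of the particles in which snoRNAs act.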

How the data were processed

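For the 12 libraries the authors deposited log2 values of FPKM + 1, as the header and the range of values show. Per the labels, RNA was extracted with TRIzol and sequenced by standard Illumina methods. FastQC, StringTie and the build GRCh38 are named in the submitters' processing notes. The aligner, annotation and strand setting were not given in the sources used here. Linear FPKM was computed from the log2 values. Genes with at least 1 FPKM in at least 3 libraries were tested, 12860 genes, by limma 3.58.1 (R 4.3.3). The model on log2(FPKM + 1) had 4 group means over all 12 libraries (8 residual degrees of freedom), and tests were two-sided, Benjamini-Hochberg adjusted over all tested genes, with a threshold of 0.05. The procedure was also run on simulated data, but no setting or outcome of that run is given here. It thus cannot show whether the p-values hold for these libraries, which were not equally far apart within a group. Figures were drawn with matplotlib 3.10.9.

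Members, gene lists and comparisons were chosen with earlier results of these data known. All members may be named; per-library values are given for up to 3 called members of largest change per role, and otherwise as stated. Of other lists, the 2 most abundant genes and a few fixed markers are named. Coordinates are from GENCODE release 29 on GRCh38, 1-based, and promoters from RefSeq on GRCh38.p14. The authors gave no counts, so no counting interval can be given.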

Additional observations from a re-analysis of the deposited data

Results flagged for a closer look

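Each of these genes was picked out because its change on starvation differed between the lines in limma's test of the difference, BxPC-3 minus CFPAC-1, after Benjamini-Hochberg adjustment. WDR12, the large-subunit factor, differed by 0.93 (adjusted p = 0.046), with changes of 0.09 in BxPC-3 and -0.84 in CFPAC-1; it was lower in 3 of 3 induced CFPAC-1 libraries than in any control library. In the 12 fits that left out 1 library its adjusted p ran from 0.0043 to 0.14. RPL13A, a ribosomal protein gene, differed by -1.06 (adjusted p = 0.034 in limma), with changes of 0.03 in BxPC-3 and 1.09 in CFPAC-1, and by -1.05 without CFPAC-1 control libraries 2 and 3 (adjusted p = 0.11 in limma). CD68, a lysosomal gene on the immune marker list, differed by -2.34 (adjusted p = 0.034 in limma), and by -1.80 without those libraries (adjusted p = 0.16 in limma). CD14, on the same list, differed by 2.79 (adjusted p = 0.036 in limma) and by 1.52 without them (adjusted p = 0.047 in limma). CD14 read 6.31 to 7.06 FPKM in induced and 1.39 to 2.18 FPKM in control BxPC-3 libraries, and 0.318 to 0.393 FPKM in induced and 0.372, 4.22 and 3.97 FPKM in control CFPAC-1 libraries.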

How the results depend on the processing

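In CFPAC-1, where 19 of the 42 members were called, the count of members called was 11 with no filter on low values, 4 with the 2 CFPAC-1 groups fitted alone (364 of 12860 tested genes), 0 without CFPAC-1 control libraries 2 and 3 (222 genes), 36 with libraries numbered 2 and 3 only (8714 genes), and 0 with libraries 2 and 3 of each group averaged as 1 (0 genes in limma), an alternative chosen after seeing the data. Leaving out 1 library at a time gave 2 to 26 calls. There were 2 without CFPAC-1 control library 2 or 3 (506 genes each) and 6 and 5 without induced CFPAC-1 library 2 and 3 (776 and 803 genes). Without BxPC-3 control library 2 and 3 there were 10 and 12 (1438 and 1541 genes). The count was 12 without induced BxPC-3 library 3 (1482 genes) and 26 without CFPAC-1 control library 1 (5403 genes). With a pseudocount of 0.1 the count was 16 (1983 genes), with a mean of at least 5 FPKM 17 (1329 of 6067 genes) and with quantile normalization 15 (2053 genes). Without mitochondrially encoded genes it was 25 (2594 genes) and with limma's trend 20 (2114 genes). Of all tested genes, 2138 of 12860 were called as reported and 1617 of 37114 with no filter on low values. In every one of 23 settings 33 of 42 members kept one direction in CFPAC-1. Settings that left out a BxPC-3 library, or changed only the filter, block, trend or groups fitted, could not alter a CFPAC-1 change.

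BxPC-3 had 0 calls except for 15 (11 up, 4 down) with libraries numbered 2 and 3 only, where 5396 genes were called in all. With all 12 libraries the members' median in BxPC-3 was -0.06 after quantile normalization and -0.09 without mitochondrially encoded genes, against 0.03 as reported. For the difference of changes, with 1 call, there were 0 calls with a pseudocount of 0.1, with a mean of at least 5 FPKM, after quantile normalization, without mitochondrially encoded genes, without CFPAC-1 control libraries 2 and 3 and with libraries 2 and 3 averaged as 1, and 37 with libraries numbered 2 and 3 only (8023 genes); leaving out 1 library gave 0 to 19 (19 without CFPAC-1 control library 1, with 4148 genes, and 6 without induced BxPC-3 library 1, with 478). Between the induced lines, with 12 calls (4660 genes), there were 36 with libraries numbered 2 and 3 only (8728 genes). With them averaged as 1 there were 0 (1286 genes called). An unadjusted p below 0.05 in limma was then reached by 7 members, and the count over all genes was not taken. Leaving out 1 library gave 5 to 15. There were 5 without induced BxPC-3 library 2 or 3 (3512 and 3428 genes) and 7 without induced CFPAC-1 library 2 (3569 genes). With libraries numbered 2 and 3 only, FTSJ3 reversed to 0.24 in CFPAC-1, and PNO1 and RRN3 to 0.22 and 0.28 between the lines. The cause of these shifts was not tested.

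With the library number as a replicate block, the counts were 22 in CFPAC-1 (2428 of all tested genes) and 0 in BxPC-3 (33 genes). They were 2 for the difference (306 genes) and 14 between the lines (4881 genes). Same-numbered libraries had correlated deviations of r = -0.08 to -0.02 in CFPAC-1 and 0.05 to 0.15 in BxPC-3 over all tested genes, and of 0.08 to 0.15 and 0.12 to 0.44 over the members; no label ties them, and not every library correlated best with its own number, so the numbers were not used as pairs. Depth is unknown, so what it limits cannot be given.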
